A study of Mus musculus with 24 samples.

Results

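The expression of 10 genes of prostaglandin and leukotriene synthesis and signalling was examined in mouse bone marrow-derived macrophages (BMDMs). The genes, chosen by their annotated symbols, were *Ptgs1*, *Ptgs2*, *Ptges*, *Ptges2*, *Ptges3*, *Ptger2*, *Ptger4*, *Alox5*, *Alox5ap* and *Tbxas1*. The Illumina MouseRef-8 v2 BeadChip carried 13 probes for 9 of them, among 25697 probes for 16593 named genes. No probe of *Ptgs1* was annotated, so cyclooxygenase-1 was not measured here. The study used 24 arrays in 2 experiments of 12, with 3 arrays in each of 8 groups. In the IKKβ experiment, IKKβ-deficient BMDMs (*Ikkβ* F/F:*Mx1-Cre*) were set against wt BMDMs (*Ikkβ* F/F, with a floxed but undeleted gene), at 4 h of 100 ng/ml LPS and at 0 h. In the p38 experiment, C57BL/6 BMDMs given 10 µM SB202190, an inhibitor of p38 kinase, 2 h before LPS were set against DMSO control BMDMs, again at 4 h of 100 ng/ml LPS and at 0 h. BMDMs came from C57BL/6-background mice of 8 to 10 weeks and were grown for 7 days. *Mx1-Cre* is switched on by interferon and acts in many blood cells, so the deletion was not restricted to macrophages. Some labels name RAW264.7, a macrophage cell line, where the protocols describe BMDMs, and the labels call the DMSO controls wild type. The sources used do not state if the 3 arrays of a group stand for different mice or different cultures. A p-value here reflects the variation among those arrays, part or all of which may be technical.

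Prostaglandins and leukotrienes are lipid mediators made from arachidonic acid, which phospholipases A2 release from membranes. The cyclooxygenases, encoded by *Ptgs1* and *Ptgs2*, turn arachidonic acid into prostaglandin H2. Terminal synthases turn this into prostaglandin E2 (*Ptges*, *Ptges2*, *Ptges3*), thromboxane A2 (*Tbxas1*) or other prostanoids. 5-Lipoxygenase (*Alox5*) and its activating protein FLAP (*Alox5ap*) begin the other branch, which leads to leukotrienes. Prostaglandin E2 acts on macrophages through its receptors EP2 (*Ptger2*) and EP4 (*Ptger4*), both of which raise cyclic AMP. *Ptgs2* and *Ptges* are known as inducible enzymes of macrophages exposed to LPS.

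Levels are normalized intensities on a linear scale, and changes are differences of their log2 values. A probe was tested if its signal stood out from negative control beads on at least 3 of the 12 arrays of an experiment, at a detection p under 0.05. This left 10 of the 13 member probes in the IKKβ experiment, of 12376 in all, and 11 in the p38 experiment, of 13523. The probe ILMN_2717913 of *Ptgs2* and the only probe of *Ptger4* were detected on 0 arrays of either experiment and stayed between 69.9 and 97.8. A change was called at a Benjamini-Hochberg adjusted p under 0.05 over all probes tested, in a limma fit of the 4 groups of an experiment.

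Arrays of the IKKβ experiment that shared a replicate number lay on 1 BeadChip by their labels, and their deviations from the group means were correlated (0.41 to 0.93 over 18 pairs, against -0.8 to 0.12 for other pairs). The fit with the BeadChip as a block is therefore given beside results whose call it changed. The deviations of the 3 arrays of a group cancel for each probe, so the other pairs tend to be negative and are no independent reference. Probe ILMN_2589556 of *Ikbkb*, the gene of IKKβ, read 193, 225 and 232 in IKKβ-deficient BMDMs at 4 h, against 791, 601 and 665 in wt BMDMs. At 0 h it read 196, 193 and 184 in IKKβ-deficient BMDMs, against 323, 415 and 471 in wt BMDMs. The groups did not overlap at either time, and the 4 h difference was called (log2 -1.66 ± 0.16 (SE), n = 3 each, limma adjusted p = 0.0142). In the p38 experiment the labels of the normalized columns and of the columns of raw intensities did not match. Of the 12 normalized columns, 8 had the same probe order as an intensity column, but only 1 as the column with its own label. The other 4, SB202190 replicates 1 and 3 at both times, matched no column (rank correlation at most 0.938). Of the mismatched columns 2 crossed treatment and time. For SB202190 replicate 2 at 0 h, the matching intensities bore the label of the third DMSO array at 4 h. For DMSO replicate 3 at 4 h, they bore the label of the third SB202190 array at 0 h. The normalized columns were used under their own labels, so each result of this experiment rests on those labels. The SB202190 arrays also stood closer together than the other arrays, with a median SD over probes of 0.08 (4 h) and 0.11 (0 h) on the log2 scale, against 0.28 (4 h) and 0.3 (0 h) in DMSO controls. By their own labels each BeadChip of this experiment held both treatments at both times. By the matched columns, 1 BeadChip held both treatments (SB202190 replicate 2 and DMSO replicate 3). By that matching the BeadChips of the 4 unmatched SB202190 columns are unknown. Elsewhere, therefore, BeadChip and treatment cannot be told apart. Differences on the BeadChip of SB202190 replicate 2 and DMSO replicate 3, below the one that held both treatments, are given beside the pooled ones. Each rests on 1 of the 2 columns whose labels crossed. All 6 macrophage markers examined were detected in both experiments, and 0 of 4 T and NK cell and 0 of 2 erythroid markers.

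The promoters of the genes called after LPS are shown because these genes moved after LPS, with the RefSeq sequence from 250 bases before to 50 bases after an annotated start (GRCm38.p6). They are those of *Ptgs2* (chr1:150099781-150100080, plus strand), *Ptges* (chr2:30903248-30903547, minus strand) and *Tbxas1* (chr6:38918736-38919035, plus strand). *Alox5ap* was called too and is named only. The starts used for *Ptges* and *Tbxas1* lie inside the annotated spans of those genes, which have further starts. Capitals mark letters that matched 1 of 6 motifs searched on both strands.
Ptgs2: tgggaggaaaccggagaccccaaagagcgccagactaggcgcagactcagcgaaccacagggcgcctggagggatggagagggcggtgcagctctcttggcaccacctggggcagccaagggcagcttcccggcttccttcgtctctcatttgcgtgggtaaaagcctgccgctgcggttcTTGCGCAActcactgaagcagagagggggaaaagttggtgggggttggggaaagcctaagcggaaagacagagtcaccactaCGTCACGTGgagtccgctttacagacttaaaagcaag
Ptges: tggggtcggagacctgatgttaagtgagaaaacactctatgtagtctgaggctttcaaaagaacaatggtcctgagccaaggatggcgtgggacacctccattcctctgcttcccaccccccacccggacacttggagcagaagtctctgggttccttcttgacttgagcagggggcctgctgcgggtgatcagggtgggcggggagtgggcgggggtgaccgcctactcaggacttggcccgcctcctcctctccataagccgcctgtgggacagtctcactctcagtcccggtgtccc
Tbxas1: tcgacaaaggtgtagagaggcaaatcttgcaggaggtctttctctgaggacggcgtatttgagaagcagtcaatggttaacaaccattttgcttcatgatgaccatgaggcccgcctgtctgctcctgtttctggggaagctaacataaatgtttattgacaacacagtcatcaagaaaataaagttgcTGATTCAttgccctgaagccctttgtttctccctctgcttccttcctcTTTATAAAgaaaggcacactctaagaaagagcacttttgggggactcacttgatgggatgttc
In *Ptgs2* the letters of a C/EBP motif (searched as TTGCNNAA) stood at -69 to -62 from the start, and a CRE core (TGACG, on the minus strand, 14 to 18) overlapped an E-box (CACGTG, 17 to 22). In *Tbxas1* an AP-1 motif (TGANTCA) stood at -61 to -55, followed by a TATA box (TATAAA) on both strands, between -13 and -6. The *Ptges* window held none of the 6. Within the 3 windows, outside which nothing was searched for these genes, the NF-κB consensus, the κB motif, matched nowhere. Among the 9 members with an entry it matched in that of *Ptges3* alone. These letters are common. Of 32851 promoters of the same length, 10.8% held the C/EBP letters, 20.8% the CRE core, 7.81% the AP-1 motif, 7.15% the E-box, 13.6% the TATA box and 8.46% the κB motif.

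Both inducible enzymes of prostaglandin E2 synthesis, *Ptgs2* and *Ptges*, gave higher signals on every 4 h array than on any 0 h array of the same cells, in all 4 kinds of cells. Of all probes, 5.56% did so in IKKβ-deficient BMDMs, 5.87% in wt BMDMs, 24.9% with SB202190 and 6.43% in DMSO controls. The test across all probes passed only in the p38 experiment or with the BeadChip block. *Ptgs2* encodes cyclooxygenase-2. Only 1 of its 2 probes gave a signal, and the other was not well above background in any group. The detected probe, ILMN_1231600, read 154, 268 and 212 at 4 h in IKKβ-deficient BMDMs, against 86.9, 95.9 and 119 in the same cells at 0 h. In wt BMDMs it read 193, 211 and 238 at 4 h, against 96, 98.9 and 121 at 0 h. Every 4 h array was above every 0 h array in both genotypes, and at 0 h the probe was detected on 1 of 3 arrays of each. The increase was 1.04 ± 0.208 (log2, SE) in IKKβ-deficient BMDMs and 1.02 ± 0.208 in wt BMDMs (n = 3 each). With the normexp background correction of the raw intensities it was 2.01 and 1.96. It was not called without the block (limma adjusted p = 0.257 in IKKβ-deficient BMDMs and 0.186 in wt BMDMs) and was called with it (adjusted p = 0.014 and 0.0103). The block call was lost in both genotypes without BeadChip 2 or BeadChip 3, and without the 0 h array of that genotype on BeadChip 2 (highest adjusted p = 0.225 in IKKβ-deficient and 0.121 in wt BMDMs). It was also lost when the block fit held only the 0 h and 4 h arrays of 1 genotype (adjusted p = 0.0906 in IKKβ-deficient and 0.125 in wt BMDMs).

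*Ptgs2* read 1147, 1050 and 1127 in SB202190-treated BMDMs of the p38 experiment at 4 h, against 99.3, 97.8 and 97.2 at 0 h. In DMSO controls it read 665, 622 and 3192 at 4 h, against 107, 298 and 109 at 0 h. The 3 SB202190 arrays at 0 h were not above the background level of 122, so the increase there was at least 9.11-fold, the ratio of the 4 h level to that background (limma adjusted p = 0.00717). In DMSO controls the increase was 2.86 ± 0.561 on the log2 scale (SE, n = 3 each, limma adjusted p = 0.0212), and 1 of the 3 arrays at 0 h, that of replicate 2, was above background. Replicates were uneven among the controls. Replicate 3 was the highest at 4 h and replicate 2 the highest at 0 h, and same-numbered differences were 2.63, 1.06 and 4.87. The call in DMSO controls was lost without the 0 h array of DMSO replicate 1 (adjusted p = 0.0849) or replicate 3 (adjusted p = 0.0697). It was also lost in a fit of the DMSO arrays alone (limma adjusted p = 0.373).

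*Ptges* encodes microsomal prostaglandin E synthase-1, the synthase that is coupled to cyclooxygenase-2. Its probe ILMN_2786442 read 981, 1059 and 2046 in IKKβ-deficient BMDMs at 4 h, against 111, 163 and 410 at 0 h. In wt BMDMs it read 3618, 1269 and 2641 at 4 h, against 119, 172 and 548 at 0 h. The lowest 4 h array was above the highest 0 h array in both genotypes, but the 0 h array of BeadChip 3 stood well above those of BeadChips 1 and 2 in both. The increase was 2.72 ± 0.657 in IKKβ-deficient and 3.36 ± 0.657 in wt BMDMs (log2, SE, n = 3 each). As for *Ptgs2*, it was not called without the block (limma adjusted p = 0.393 in IKKβ-deficient and 0.181 in wt BMDMs) and was called with it (adjusted p = 0.0178 and 0.00698). The second probe, ILMN_2616028, read 448, 322 and 813 in IKKβ-deficient BMDMs at 4 h and 93.1, 105 and 220 at 0 h. It read 1329, 366 and 963 in wt BMDMs at 4 h and 96.8, 109 and 228 at 0 h. The groups did not overlap in either genotype, and its increases were 1.92 and 2.54 (limma adjusted p with the block 0.0285 in IKKβ-deficient and 0.0085 in wt BMDMs; without it, 0.531 and 0.219). In wt BMDMs the block calls of *Ptges* held in 13 of 15 fits that left out a BeadChip or an array, and were lost without BeadChip 2 or 3. They were also lost when the block fit held only wt arrays (adjusted p = 0.171 for ILMN_2616028 and 0.166 for ILMN_2786442). In IKKβ-deficient BMDMs they held in 8 of 15 (ILMN_2786442) and 7 of 15 (ILMN_2616028), and any one of the 3 IKKβ-deficient 4 h arrays could end them.

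ILMN_2786442 of *Ptges*, in the p38 experiment, read 2587, 2482 and 2377 in SB202190-treated BMDMs at 4 h, against 321, 277 and 258 at 0 h. In DMSO controls it read 1910, 1479 and 3749 at 4 h, against 151, 305 and 237 at 0 h. Groups were far apart at the 2 times under both treatments. The increase was 3.13 ± 0.321 with SB202190 (limma adjusted p = 0.00283) and 3.31 ± 0.321 in DMSO controls (adjusted p = 0.00256; log2, SE, n = 3 each). ILMN_2616028 read 544, 603 and 560 with SB202190 at 4 h and 182, 159 and 153 at 0 h, against 710, 597 and 1503 (4 h) and 96.6, 171 and 152 (0 h) in DMSO controls. Its increases were called too, at 1.79 ± 0.31 with SB202190 (adjusted p = 0.00905) and 2.66 ± 0.31 in DMSO controls (adjusted p = 0.00537). These and the other member calls after LPS were lost, in both treatments, without the 4 arrays numbered 1 or the 4 numbered 3. Each SE pooled the spread of all 4 groups, and the SB202190 arrays stood closer together than the DMSO arrays. Fitted on the DMSO arrays alone, neither *Ptges* increase was called (limma adjusted p = 0.357 for each probe). Leaving out the 4 SB202190 arrays that matched no intensity column left 1 such array at each time, and the increases with SB202190 were not called (3.16 for ILMN_2786442, adjusted p = 1). With the raw intensities under their own column labels, 0 member probes were called in either treatment. The LPS change with SB202190 was then 0.04 for *Ptgs2*, 0.62 for ILMN_2786442 and -0.04 for ILMN_2616028. In DMSO controls it was 1.11, 1.99 and 1.48 for the same probes.

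**Figure D1:**
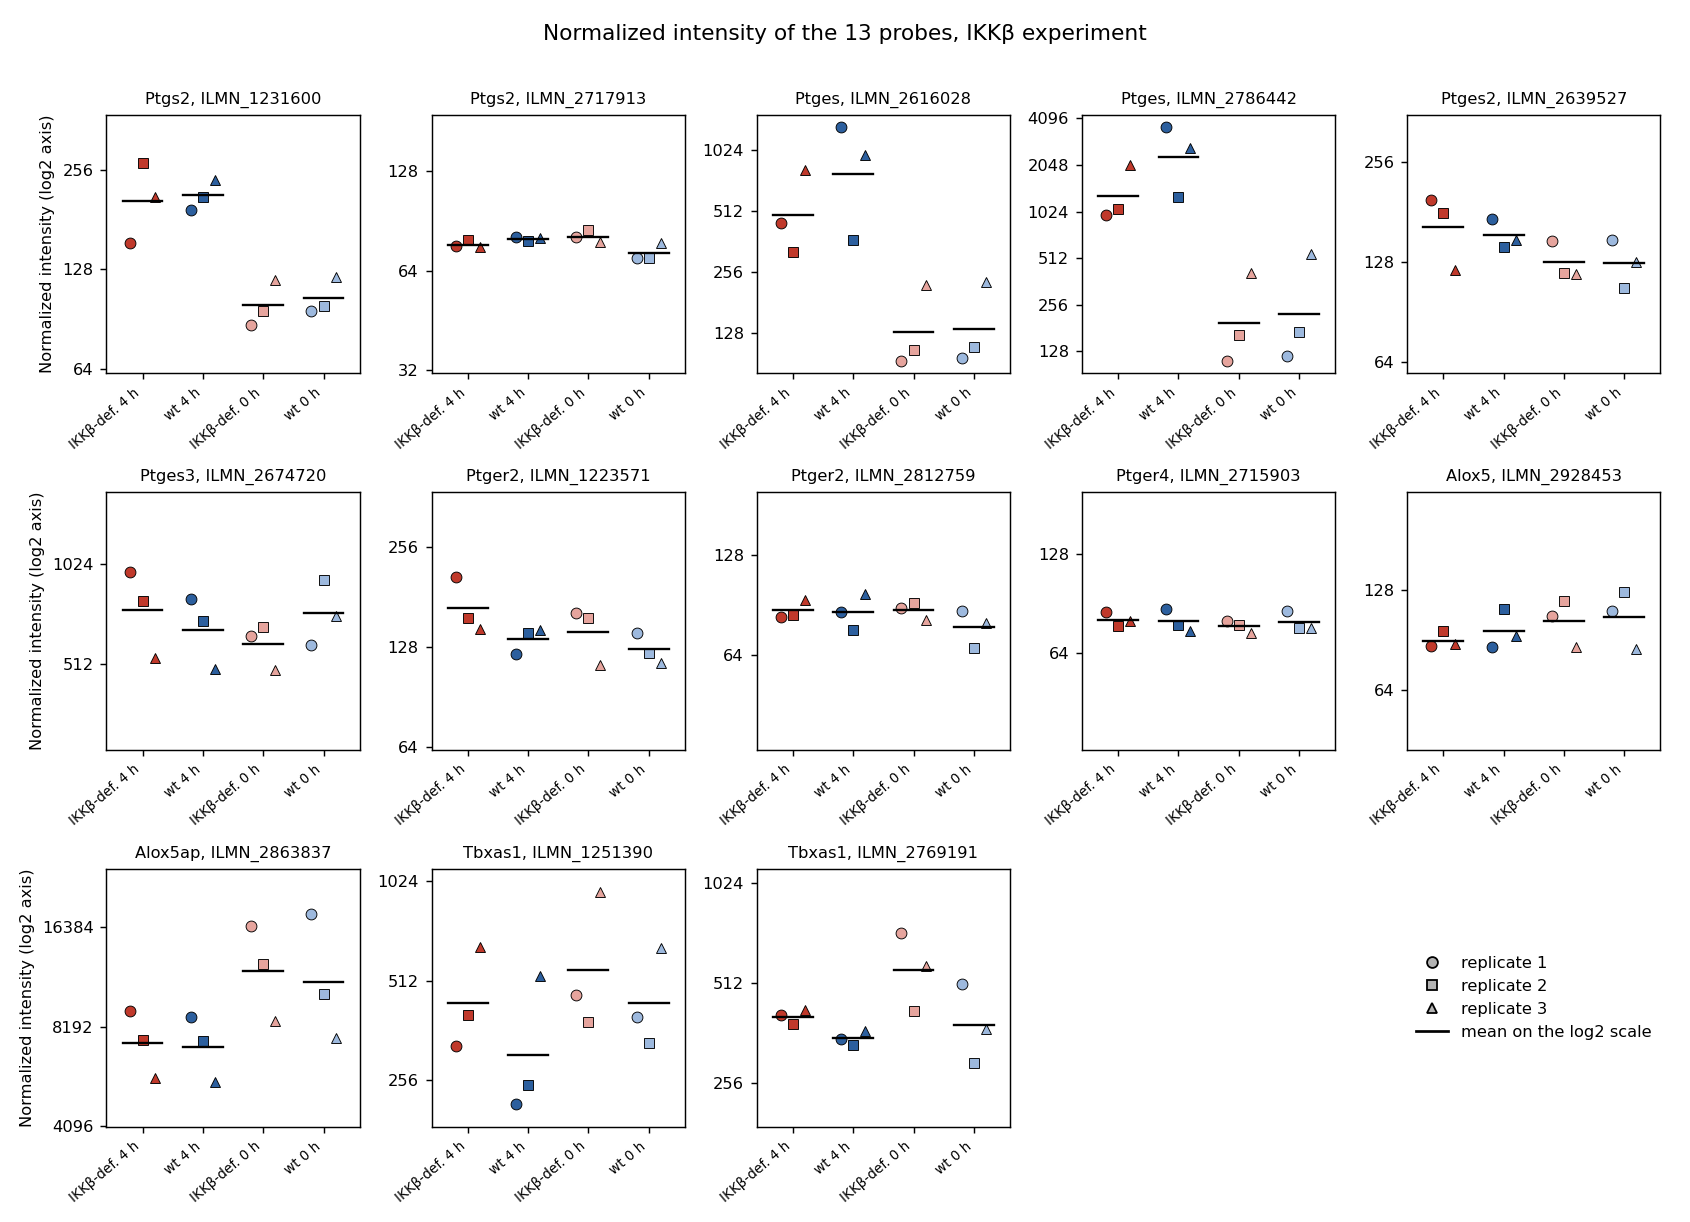
Normalized intensities (log axis) of the member probes on each array of the IKKβ experiment, at 4 h of LPS in IKKβ-deficient and wt BMDMs and then at 0 h in the same order; circles, squares and triangles are replicates 1, 2 and 3 and lines are means on the log2 scale. ILMN_1231600 of *Ptgs2* and both *Ptges* probes lie higher at 4 h than at 0 h on every array, and *Alox5ap* lies lower at 4 h than at 0 h on each BeadChip.

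**Figure D2:**
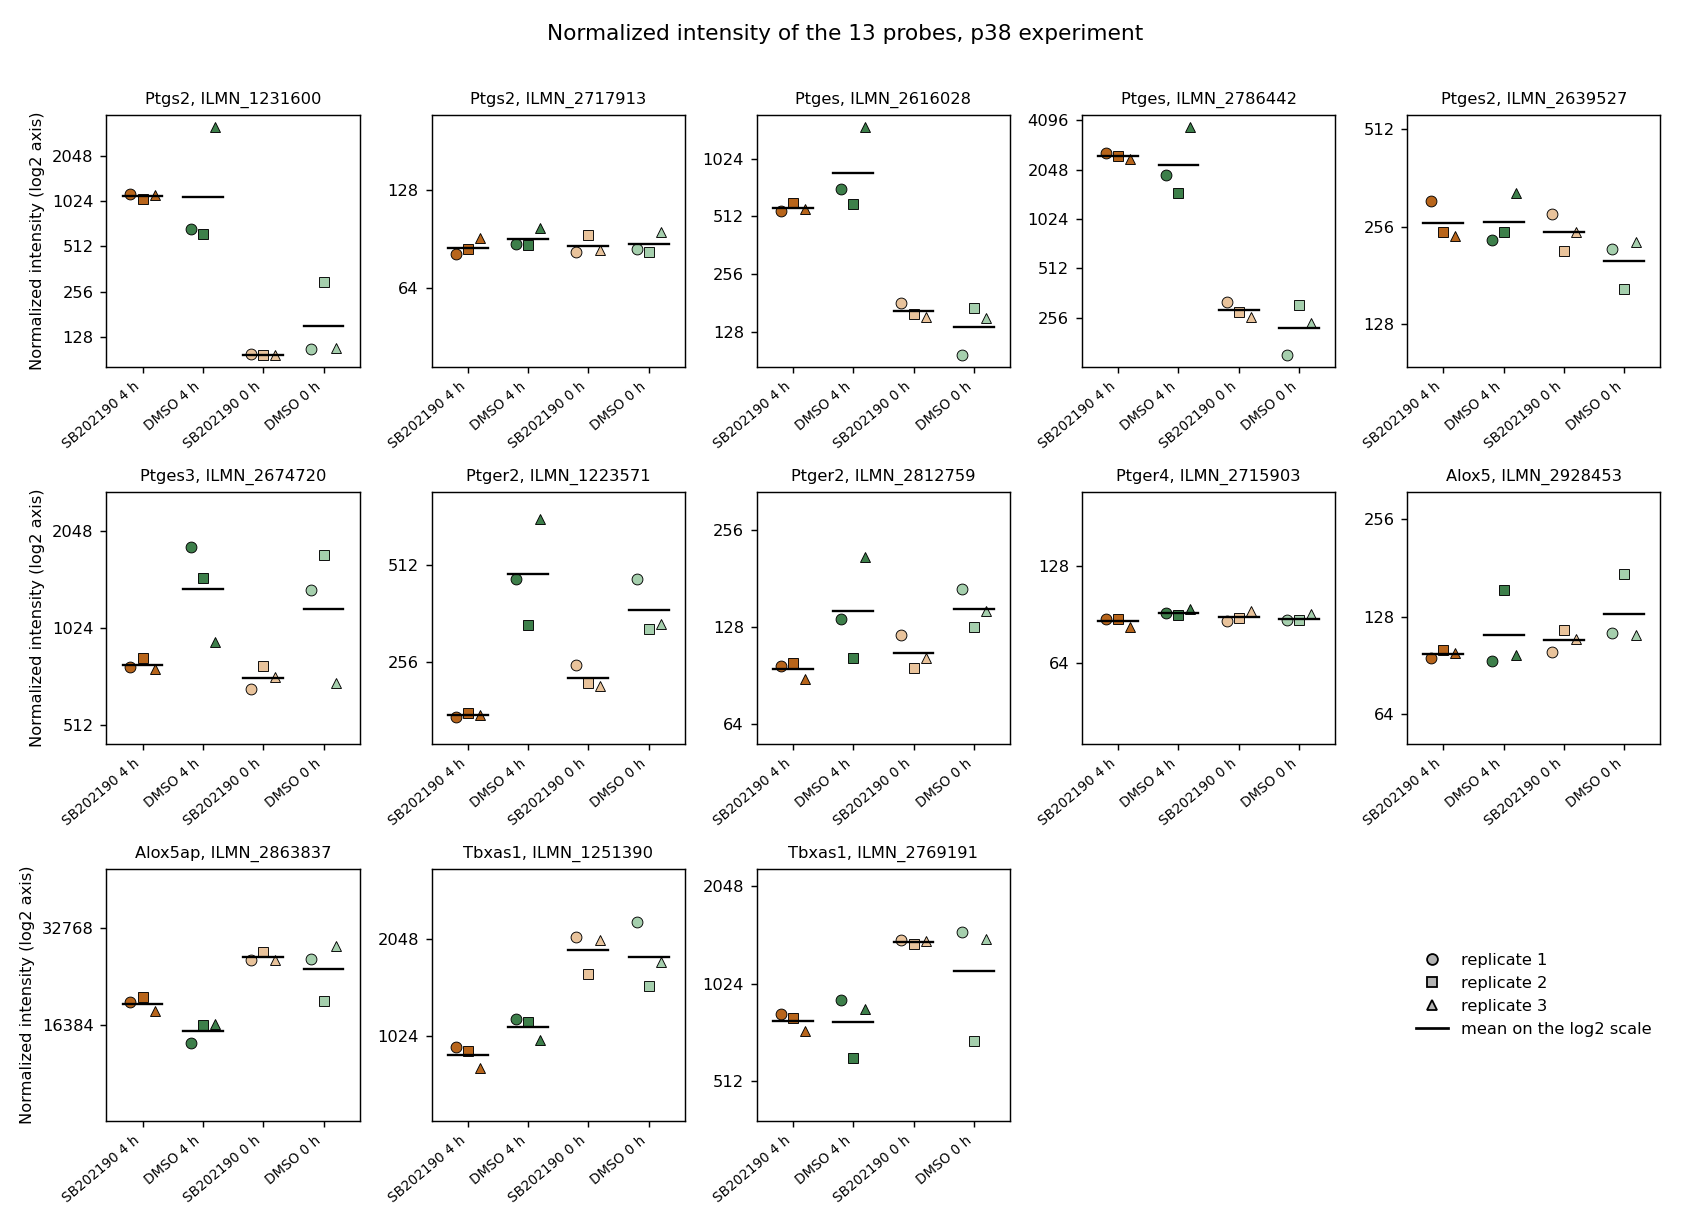
Normalized intensities (log axis) of the member probes on each array of the p38 experiment, at 4 h of LPS with SB202190 and in DMSO controls and then at 0 h in the same order, with replicates and means marked as circles, squares, triangles and lines. At 4 h ILMN_1231600 of *Ptgs2* reads 1050 to 1147 on the SB202190 arrays, between the DMSO arrays of replicates 1 and 2 and that of replicate 3 (3192).

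Over all members, 0 of 10 probes were called after LPS in IKKβ-deficient BMDMs (background over all probes 0% higher and 0% lower) and 0 of 10 in wt BMDMs (background 0.0162% higher and 0% lower). At an unadjusted p under 0.05, 3 were higher and 0 lower in IKKβ-deficient BMDMs (background 3.52% higher and 2.72% lower). In wt BMDMs 3 were higher and 0 lower (background 3.80% higher and 3.15% lower). For those 3 probes the 4 h and 0 h arrays did not overlap in either genotype (background 5.56% in IKKβ-deficient and 5.87% in wt BMDMs). With the block, 3 were higher and 1 lower in IKKβ-deficient BMDMs (background 1.76% higher and 1.44% lower). In wt BMDMs it was also 3 higher and 1 lower (background 2.66% higher and 3.07% lower). In both genotypes these were the probe of *Ptgs2*, the 2 of *Ptges* and that of *Alox5ap*. With SB202190, 3 of 11 were called higher and 1 lower (background 4.85% higher and 4.06% lower), and in DMSO controls 3 higher and 2 lower (background 2.77% higher and 2.95% lower). The 3 higher were again the probes of *Ptgs2* and *Ptges*. Arrays did not overlap for 3 probes higher and 4 lower with SB202190 (background 24.9% higher and 31.4% lower) and for 4 higher and 2 lower in DMSO controls (background 6.43% higher and 8.45% lower). The median change of the members was 0.29 in IKKβ-deficient and -0.01 in wt BMDMs (both against -0.02 over all probes), and -0.14 with SB202190 and 0.21 in DMSO controls (both against -0.03).

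**Figure D3:**
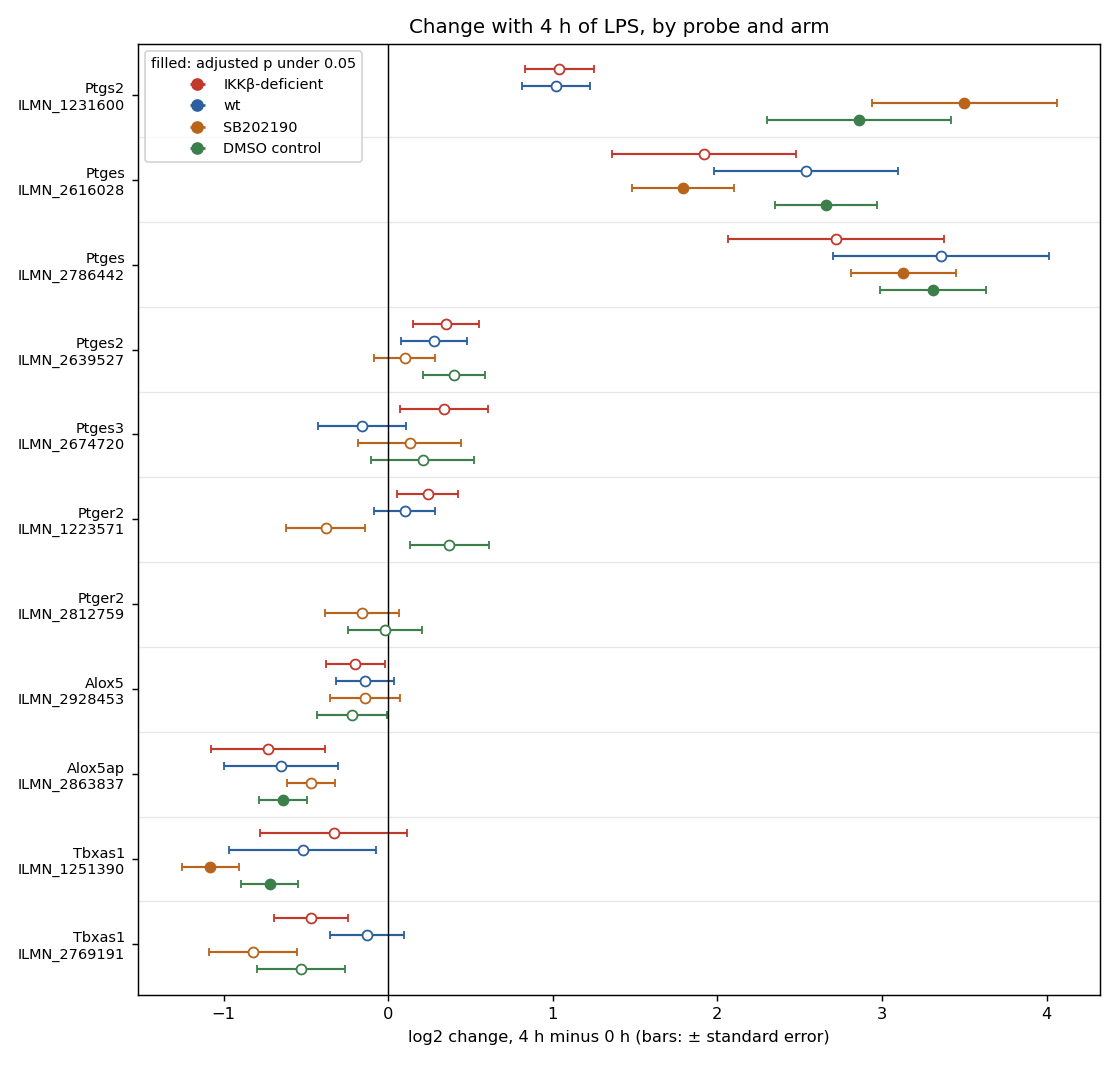
Change after LPS (log2 of 4 h over 0 h, ± standard error) of each tested member probe in the 4 kinds of cells, each with 3 arrays at each time. Filled points passed an adjusted p under 0.05 without a block. The 3 probes of *Ptgs2* and *Ptges* stand at 1.02 or more, where the point of *Ptgs2* with SB202190 is set against 0 h arrays not above background (at least 9.11-fold), whereas *Alox5ap* and both *Tbxas1* probes stand below 0 throughout.

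The other synthases of prostaglandin E2 were not called after LPS. *Ptges3*, known as p23, is a co-chaperone of Hsp90 also described as a cytosolic prostaglandin E synthase, and *Ptges2* encodes a membrane-associated synthase. *Ptges2* lay between 107 and 197 in the IKKβ experiment and between 164 and 326 in the p38 experiment, and *Ptges3* between 492 and 972 on the arrays of the IKKβ experiment. Their changes in the 4 kinds of cells were 0.1 to 0.4 for *Ptges2* and -0.16 to 0.34 for *Ptges3*. In DMSO controls the 4 h and 0 h arrays of *Ptges2* did not overlap (background 6.43% higher), with an increase of 0.4 ± 0.186 (limma adjusted p = 0.225).

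*Tbxas1* encodes thromboxane A synthase. Its signal was lower after LPS in the p38 experiment. The probe ILMN_1251390 read 949, 922 and 820 with SB202190 at 4 h, against 2077, 1600 and 2039 at 0 h. In DMSO controls it read 1159, 1132 and 1001 at 4 h, against 2312, 1467 and 1736 at 0 h. Each 4 h array was below each 0 h array under both treatments (background 31.4% with SB202190 and 8.45% in DMSO controls). The change was -1.08 ± 0.175 with SB202190 (limma adjusted p = 0.00717) and -0.72 ± 0.175 in DMSO controls (adjusted p = 0.0403; log2, SE, n = 3 each). The call in DMSO controls was lost without any single array of the experiment except DMSO replicate 2 (adjusted p 0.0559 to 0.14). It was also lost in a fit of the DMSO arrays alone (limma adjusted p = 0.389). The second probe, ILMN_2769191, read 824, 803 and 731 with SB202190 at 4 h, against 1403, 1356 and 1392 at 0 h, and its change of -0.82 was not called (adjusted p = 0.0806). In DMSO controls it read 913, 604 and 857 at 4 h and 1485, 680 and 1408 at 0 h (-0.53, adjusted p = 0.262), and the times overlapped.

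In the IKKβ experiment the LPS changes of *Tbxas1* were not called. They were -0.33 (ILMN_1251390) and -0.47 (ILMN_2769191) in IKKβ-deficient BMDMs and -0.52 and -0.13 in wt BMDMs (limma adjusted p between 0.835 and 0.941). Its level was higher in IKKβ-deficient than in wt BMDMs on every BeadChip, at both times and with both probes (background for a probe higher on all 3 BeadChips 17.5% at 4 h and 17.4% at 0 h). ILMN_2769191 read 410, 384 and 424 in IKKβ-deficient BMDMs at 4 h, against 348, 332 and 367 in wt BMDMs. At 0 h it read 727, 422 and 575 in IKKβ-deficient BMDMs, against 508, 294 and 372 in wt BMDMs. Within BeadChips 1, 2 and 3 the differences were 0.24, 0.21 and 0.21 at 4 h and 0.52, 0.52 and 0.63 at 0 h. ILMN_1251390 read 326, 405 and 646 in IKKβ-deficient BMDMs at 4 h, against 218, 248 and 530 in wt BMDMs. At 0 h it read 463, 385 and 950 in IKKβ-deficient BMDMs, against 399, 333 and 643 in wt BMDMs. None of the 4 differences was called (limma adjusted p = 1), with or without the block. The 0 h difference of ILMN_2769191, 0.56 ± 0.224 (unadjusted p = 0.0321), was the single member probe under an unadjusted p of 0.05 at 0 h (background 0.234% higher).

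In the leukotriene branch *Alox5ap* read lower at 4 h than at 0 h in every pair of same-numbered arrays, and *Alox5* stayed near background. *Alox5ap* encodes FLAP, which presents arachidonic acid to 5-lipoxygenase. It read 9111, 7470 and 5749 in IKKβ-deficient BMDMs at 4 h, against 16442, 12667 and 8511 at 0 h. In wt BMDMs it read 8766, 7390 and 5582 at 4 h, against 17954, 10269 and 7565 at 0 h. Levels followed the BeadChips, with BeadChip 1 highest and BeadChip 3 lowest in every group, and on each BeadChip the 4 h array was the lower (background for all 3 BeadChips lower 24.9% in IKKβ-deficient and 24.7% in wt BMDMs). The change was -0.73 ± 0.346 in IKKβ-deficient and -0.65 ± 0.346 in wt BMDMs (log2, SE, n = 3 each; limma adjusted p = 0.83 and 0.773). With the block both were called (adjusted p = 0.0266 in IKKβ-deficient and 0.0282 in wt BMDMs), in 7 of 15 and 8 of 15 fits that left out a BeadChip or an array. With the block and 1 genotype alone neither was (adjusted p = 0.0906 in IKKβ-deficient and 0.196 in wt BMDMs). With SB202190 it read 19235, 19993 and 18133 at 4 h, against 26032, 27600 and 26032 at 0 h. In DMSO controls it read 14388, 16426 and 16532 at 4 h, against 26248, 19446 and 28683 at 0 h. Within each treatment every 4 h array was below every 0 h array (background 31.4% with SB202190 and 8.45% in DMSO controls). The decrease was called in DMSO controls (-0.64 ± 0.147, limma adjusted p = 0.0351) and not with SB202190 (-0.47 ± 0.147, adjusted p = 0.0693). The difference between the 2 changes was 0.16 (95% interval -0.3 to 0.62, adjusted p = 1). The call in DMSO controls was lost without any single array other than those of DMSO replicate 2 (adjusted p 0.0584 to 0.12). It was also lost in a fit of the DMSO arrays alone (limma adjusted p = 0.389).

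*Alox5*, the gene of 5-lipoxygenase, read 84.8 to 126 in the IKKβ experiment and 93.1 to 173 in the p38 experiment. Its changes after LPS ran between -0.22 and -0.14 and none was called. Other cells of the bone marrow express these genes too. Of 8 markers of neutrophils and their precursors, 6 were detected in the IKKβ experiment (*Elane*, *Ngp*, *S100a8*, *Ltf*, *Camp* and *S100a9*) and 4 in the p38 experiment. The summed level of the 8 was 3400 to 4870 in IKKβ-deficient BMDMs and 2900 to 4480 in wt BMDMs at 4 h, and 1270 to 2140 in IKKβ-deficient BMDMs and 1350 to 4290 in wt BMDMs at 0 h. In the p38 experiment it was 1610 to 1720 with SB202190 and 1940 to 3220 in DMSO controls at 4 h, and 1880 to 2110 with SB202190 and 1510 to 2140 in DMSO controls at 0 h. Of 7 markers of mast cells and basophils only *Hdc* was detected, a gene that macrophages can also express. Their summed level was 3200 to 8760 in IKKβ-deficient and 5610 to 12800 in wt BMDMs at 4 h, and 844 to 6070 in IKKβ-deficient and 888 to 6210 in wt BMDMs at 0 h. In the p38 experiment it was 3080 to 3170 with SB202190 and 5600 to 17300 in DMSO controls at 4 h, and 2040 to 2240 with SB202190 and 1160 to 12000 in DMSO controls at 0 h. Of 5 fibroblast and stroma markers 3 were detected in both experiments (*Col1a1*, *Col1a2* and *Dcn*). Their summed level was 711 to 1140 in IKKβ-deficient and 666 to 740 in wt BMDMs at 4 h, and 666 to 974 in IKKβ-deficient and 608 to 629 in wt BMDMs at 0 h. With SB202190 it was 1040 to 1080, against 1120 to 1710 in DMSO controls, at 4 h, and 884 to 906, against 859 to 1520 in DMSO controls, at 0 h. Also detected were 2 of 3 endothelial markers and 1 of 3 B cell markers in both experiments, and 1 of 3 eosinophil and 1 of 4 dendritic cell markers in the IKKβ experiment (0 in the p38 experiment). The part of such cells in these results was not tested, and fewer cells of a type and less RNA per cell cannot be told apart.

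No member was called between the genotypes. At 4 h of LPS 0 of 10 member probes were called (background 0% higher and 0.00808% lower), and 0 passed an unadjusted p of 0.05 (background 0.598% higher and 0.574% lower). For *Ptgs2* the 4 h difference was -0.05 ± 0.208 (log2, SE, n = 3 each), with a 95% interval of -0.52 to 0.41, and the difference between the LPS changes was 0.02. *Ptges* was lower in IKKβ-deficient BMDMs on each BeadChip with both probes (background 14.9%). The differences on BeadChips 1, 2 and 3 were -1.88, -0.26 and -0.37 for ILMN_2786442 and -1.57, -0.19 and -0.24 for ILMN_2616028. The pooled differences were -0.84 (95% interval -2.3 to 0.63) and -0.67 (-1.91 to 0.58), and the differences between the LPS changes were -0.64 and -0.61, with an adjusted p of 1 for each. Most of this came from BeadChip 1. Without it, the 4 h differences of *Ptges* were -0.31 and -0.22. Only *Ptger2* (0.31) and ILMN_2769191 of *Tbxas1* (0.22) had IKKβ-deficient arrays that all lay above the wt arrays at 4 h (2 of 10 probes, background 2.60%). At 0 h 0 of 10 were called (background 0% higher and 0% lower), as were 0 of 10 differences between the LPS changes (background 0% higher and 0% lower, with 0 members under an unadjusted p of 0.05, background 0.234% higher and 0.105% lower).

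At 4 h of LPS 1 member was called lower with SB202190, *Ptger2*, which encodes the prostaglandin E2 receptor EP2. Its probe ILMN_1223571 read 173, 178 and 176 in SB202190-treated BMDMs, against 462, 332 and 709 in DMSO controls. At 0 h it read 251, 220 and 215 with SB202190, against 463, 324 and 335 in DMSO controls. The treated arrays lay below the controls at both times (at 0 h this held for 3 of 11 member probes, background 7.92%), and the gap was wider at 4 h. The difference was -1.44 ± 0.24 at 4 h (log2, SE, n = 3 each, 95% interval -1.97 to -0.92, limma adjusted p = 0.0153). It was -0.69 at 0 h (adjusted p = 0.489). The difference between the LPS changes was -0.75 (unadjusted p = 0.0486, adjusted p = 0.943). On the BeadChip that held both treatments the difference was -2 at 4 h and -0.61 at 0 h. The other probe, ILMN_2812759, read 97, 99.4 and 88.5 with SB202190 at 4 h, none above background, against 136, 103 and 211 in DMSO controls, 2 of which were above it. That probe was lower by at least 1.18-fold (adjusted p = 0.179). The call for *Ptger2* was lost without any one of the 3 SB202190 arrays at 4 h (adjusted p 0.0773 to 0.082), without the arrays numbered 1 (adjusted p = 0.24) or 3 (adjusted p = 0.119), and without the 4 unmatched arrays (-1.43, adjusted p = 0.999). With the raw intensities under their own labels the difference was -0.55 (adjusted p = 1). In the IKKβ experiment ILMN_1223571 lay between 113 and 209, with changes of 0.24 in IKKβ-deficient and 0.1 in wt BMDMs after LPS (adjusted p = 0.913 and 0.939). The probe of *Ptger4*, the gene of EP4, was not well above background in any group.

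*Ptger2* was the 1 of 11 member probes called between SB202190 and DMSO at 4 h (background 0.887% lower), and 0 were called higher (background 1.75%). At 0 h 0 of 11 were called (background 0% higher and 0% lower), with 2 under an unadjusted p of 0.05, both lower (background 4.22%). These were *Ptger2* and *Ptges3*. *Ptges3* read 777, 825 and 766 with SB202190 at 4 h, against 1821, 1462 and 930 in DMSO controls. At 0 h it read 665, 782 and 720 with SB202190, against 1342, 1726 and 693 in DMSO controls. DMSO replicate 3 stood close to the treated arrays at both times, unlike replicates 1 and 2. The differences of *Ptges3* were -0.78 at 4 h (95% interval -1.47 to -0.09, adjusted p = 0.199) and -0.7 at 0 h (adjusted p = 0.505). On the BeadChip that held both treatments they were -0.17 and 0.17.

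Neither inducible enzyme was called between SB202190-treated and DMSO control BMDMs at 4 h. For *Ptgs2* the difference was 0.01 with a wide 95% interval, -1.22 to 1.25. It was 0.78 without DMSO replicate 3 at 4 h and -0.4 without DMSO replicate 2, and -1.6 on the BeadChip that held both treatments. The 2 probes of *Ptges* differed in sign, at -0.6 for ILMN_2616028 (95% interval -1.28 to 0.09) and 0.18 for ILMN_2786442 (-0.53 to 0.88), and both were negative on the shared BeadChip (-1.32 and -0.59). The difference between the LPS changes was -0.87 for ILMN_2616028 of *Ptges* (adjusted p = 0.965). Over the members 0 of 11 such differences were called (background 0% higher and 0.0148% lower), and 1 passed an unadjusted p of 0.05 (*Ptger2*, lower, background 2.31%). SB202190 arrays lay entirely below DMSO arrays for 4 probes at 4 h (background 14.8%) and above for 1, *Alox5ap* (background 18.3%).

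**Figure D4:**
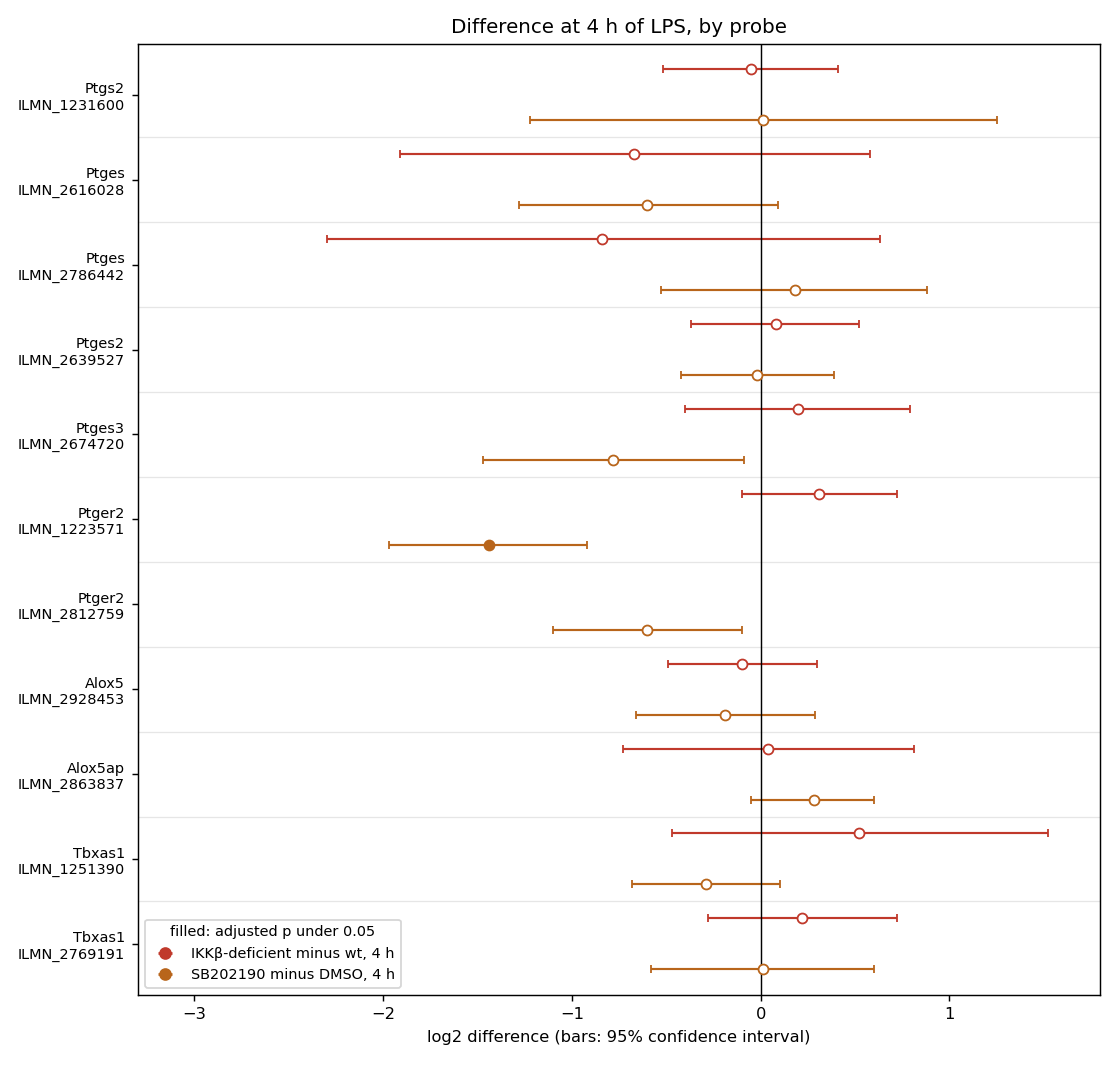
Difference at 4 h of LPS (log2, bars 95% intervals) of each tested member probe, for IKKβ-deficient over wt BMDMs and for SB202190 over DMSO control BMDMs, with 3 arrays per group. The only called difference is that of *Ptger2* ILMN_1223571 with SB202190 (-1.44), and the interval of *Ptges* for IKKβ-deficient over wt BMDMs spans 0 for both probes.

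Other genes of the pathway are given against the share of all probes called, at most 0.0162% in 1 direction in any comparison of the IKKβ experiment, and 4.85% (higher) and 4.06% (lower) after LPS with SB202190 and 2.77% and 2.95% in DMSO controls. Between SB202190 and DMSO at 4 h it was 1.75% higher and 0.887% lower. These are shares of the fits without a block. With so few probes called, a count of 0 in a list is near the background. Of 15 phospholipase A2 and related genes, 6 could be tested in the IKKβ experiment and 8 in the p38 experiment, and 0 were called in any comparison without a block. The median LPS change of those tested was 0.05 in IKKβ-deficient and -0.1 in wt BMDMs, and -0.16 with SB202190 and -0.06 in DMSO controls. *Pla2g4a*, which encodes the cytosolic enzyme that releases arachidonic acid, was detected on 0 arrays of either experiment. *Pla2g7*, which encodes the hydrolase of platelet-activating factor, averaged 411 with SB202190 and 1170 in DMSO controls at 4 h (-1.44, adjusted p = 0.0774, 0.0287 in the fit blocked on replicate numbers). *Pla2g15*, a lysosomal phospholipase, averaged 1840 at 4 h and 7160 at 0 h in DMSO controls (-1.7, adjusted p = 0.0607, 0.0489 in the blocked fit). By the matched columns the replicate numbers of the p38 experiment did not follow the BeadChips. The share of all probes called in its blocked fits is not given here. Of 8 other prostanoid synthase genes, 3 were tested, with 6 probes and a median LPS change of -0.18 in IKKβ-deficient and -0.21 in wt BMDMs, and of -0.12 with SB202190 and -0.34 in DMSO controls. *Hpgds*, the hematopoietic synthase of prostaglandin D2, was detected on all 12 arrays of each experiment and called in no comparison. *Cbr1*, a carbonyl reductase that can reduce prostaglandins, averaged 770 with SB202190 and 469 in DMSO controls at 4 h (0.72 ± 0.159, limma adjusted p = 0.0416).

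Of 14 other lipoxygenase and leukotriene genes 6 were tested and 0 called, among them *Ltc4s*, the synthase of leukotriene C4. Their median LPS change was -0.17 in IKKβ-deficient and -0.16 in wt BMDMs, and -0.09 with SB202190 and -0.12 in DMSO controls. Of 11 genes for the breakdown or transport of prostanoids and leukotrienes, 6 were tested in the IKKβ experiment and 7 in the p38 experiment, and 0 were called, with median LPS changes of -0.07 in IKKβ-deficient and 0 in wt BMDMs, and of -0.24 with SB202190 and -0.14 in DMSO controls. The calls after LPS lay among 12 other eicosanoid receptors, of which 6 were tested in the IKKβ experiment and 4 in the p38 experiment. Their median LPS change was 0.03 in IKKβ-deficient and -0.06 in wt BMDMs, and -0.16 with SB202190 and 0 in DMSO controls. *Ptgir*, the receptor of prostacyclin, averaged 548 at 4 h and 263 at 0 h with SB202190 (1.06 ± 0.223, limma adjusted p = 0.0182), against 364 at 4 h and 294 at 0 h in DMSO controls (0.27, adjusted p = 0.515). The difference between these changes was not called (0.78, adjusted p = 0.892). In IKKβ-deficient BMDMs *Ptgir* averaged 327 at 4 h and 177 at 0 h (0.85, adjusted p = 0.741, 0.0369 in the blocked fit, with a background of 1.76% higher). *Cysltr1*, a receptor of cysteinyl leukotrienes, averaged 452 at 4 h and 938 at 0 h with SB202190 (-1.03 ± 0.231, adjusted p = 0.0219) and had a change of 0.01 in DMSO controls. At 4 h it was lower with SB202190 than in DMSO controls (means 452 and 931, -1, adjusted p = 0.0477, 0.0634 in the blocked fit). The difference between its LPS changes was not called (-1.04, adjusted p = 0.695).

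The signals of *Ptgs2* and *Ptges* ran together over the arrays. As a description over the 12 arrays of an experiment, which share the LPS contrast and the BeadChips, *Ptgs2* correlated with the 2 probes of *Ptges* at 0.84 and 0.9 (Pearson, log2) in the IKKβ experiment and at 0.95 and 0.96 in the p38 experiment. The 2 *Ptges* probes correlated with each other at 0.98 and 0.97. *Alox5ap* ran the other way, at -0.82 with *Ptgs2* in the IKKβ experiment and -0.85 in the p38 experiment. In the p38 experiment *Tbxas1* did so too, at -0.92 (ILMN_1251390) and -0.78 (ILMN_2769191) with *Ptgs2*. In the IKKβ experiment these were -0.15 and -0.47. The 5 probes most like *Ptgs2* in the IKKβ experiment were those of *Lcn2*, *Zc3h12a*, *Dtx2*, *Dcun1d3* and *Syk* (0.939 to 0.966). Those in the p38 experiment were *Gphn*, *Plscr1*, *Dcbld2*, *Gabpb1* and *Rab38* (0.978 to 0.988). The 2 sets have no gene in common. For ILMN_2786442 of *Ptges* the most alike were *Serpinb2* (0.989), *Slc7a2* (0.984), its own second probe (0.983), *Trim36* (0.967) and *Rffl* (0.955) in the IKKβ experiment. Those in the p38 experiment were *Cd200* (0.985), *Slc7a2* (0.984), *Tank*, *Fut8* and *Gphn*. *Slc7a2*, which encodes a transporter of cationic amino acids, was thus among the 5 in both experiments, but through a different probe in each. It was also among the 5 for ILMN_2616028, at 0.963 in the IKKβ experiment, where *Serpinb2* (0.975), *Mefv* and *Gfi1* (0.947 each) stood beside it, and at 0.981 in the p38 experiment, beside *Tmem39a*, *Trim36*, *Rffl* and *Appl1*.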

How the data were processed

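The authors deposited, for each array, intensity values that were not normalized, each with a detection p-value from negative control beads. The authors also deposited intensity values quantile-normalized over the 12 arrays of each experiment in Partek (no version stated). These normalized values (linear, not centred, median 93.1 in the IKKβ and 115 in the p38 experiment) were the main measurement and were taken to log2. Detection was read from the intensity columns, so in the p38 experiment the background of 122 is 1 level for all arrays. Arrays give no read depth, and between 10050 and 12508 probes were detected per array; the number of arrays limits the precision. Of the per-sample columns 0 were unused.

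Gene symbols were those of the platform annotation, where 23978 probes have 1 symbol, 0 have several and 1719 have none. RefSeq held the gene numbers of 23962 probes, all 13 member probes included. Probes with a detection p under 0.05 on at least 3 of 12 arrays were tested, each by itself, with limma 3.58.1 in R 4.3.3 (with data.table version 1.17.8): group means of the 4 groups of an experiment, 2-sided moderated tests, Benjamini-Hochberg adjustment over all probes tested, called at an adjusted p under 0.05. Intervals are 95%. The fitting code was tested on simulated data. The experiments were fitted separately. The rule for named genes took every member, pathway genes called with or without the block, and the 5 probes most correlated with *Ptgs2* or *Ptges*. Of the pathway genes named, *Pla2g4a*, *Hpgds* and *Ltc4s* did not meet this rule. The members and lists were chosen with earlier results of these data known. Alternatives covered the replicate block, the raw intensities, filters, array weights, a 2-group fit, the methods' t-test and each array left out. Promoters came from RefSeq. Plots were made in matplotlib 3.10.9 (Python 3.11.15, numpy 2.4.6, pandas 2.3.3).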

Additional observations from a re-analysis of the deposited data

How the results depend on the processing

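Counts of member probes called after LPS in the IKKβ experiment depended on the BeadChip. With the replicate block, that is with the BeadChip as a term, 4 were called in IKKβ-deficient and 4 in wt BMDMs, against 0 in each without it; leaving out a BeadChip as well gave 0 to 4 and 0 to 3, and leaving out an array 0 to 4 and 2 to 4. With the block and only the 2 groups compared, 2 were called in IKKβ-deficient and 0 in wt BMDMs. Without the block, leaving out a BeadChip or an array called 0 there. In the p38 experiment same-numbered DMSO arrays of the 2 times were correlated (0.54 to 0.59), same-numbered pairs with an SB202190 array ran between -0.07 and 0.09, and the replicate block changed no member call (4, 5 and 1). There, leaving out the arrays of 1 number gave 0 to 5 calls after LPS with SB202190, 0 to 6 in DMSO controls and 0 to 1 between SB202190 and DMSO at 4 h; leaving out 1 array gave 4 to 6, 2 to 6 and 0 to 1. The same 3 comparisons had 0, 0 and 0 calls with the intensities under their own labels, with the SB202190 arrays of a time averaged as 1 sample, and without the 4 unmatched SB202190 arrays. The last 2, which leave fewer samples, were chosen after seeing the data, as were the fits that combine the block with 2 groups or with a left-out array. With only the 2 groups compared the counts after LPS were 7 with SB202190 and 0 in DMSO controls, with the block as well 7 and 0, and then 0 between SB202190 and DMSO at 4 h. Probes detected on all 12 arrays gave 2 and 3, and array weights 7 and 3. The methods' t-test (the sides are not stated) was run at an unadjusted p of 0.05 or less, without the methods' fold threshold and on the same probes. Its p was that of 1 tail, on the side to which each probe moved, with no direction fixed beforehand. It is therefore smaller than a 2-sided p, and more probes can pass. So run, the t-test called 3 after LPS in IKKβ-deficient and 3 in wt BMDMs, and 1 between the genotypes at 4 h. In the p38 experiment it called 7 after LPS with SB202190, 4 in DMSO controls, and 2 (0 h) and 4 (4 h) between SB202190 and DMSO. After Benjamini-Hochberg adjustment of the same p-values it called 7 after LPS with SB202190 and 0 in each other comparison. Under the intensities' own labels the LPS change with SB202190 was 0.04 for *Ptgs2*, 0.62 for ILMN_2786442 of *Ptges*, -0.04 for ILMN_2616028 of *Ptges* and 0.05 and 0 for the *Tbxas1* probes ILMN_1251390 and ILMN_2769191, the 4 h difference of *Ptger2* was -0.55 (adjusted p = 1), and the 0 h difference of *Ptges3* was 0.12; the cause was not tested. Median scaling put the median LPS change of all probes in wt BMDMs at -0.15, against -0.02; it and the normexp background correction were not run in the p38 experiment.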
